A study of Mus musculus with 6 samples.

Results

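The DNA replication and repair genes of the mouse liver were compared between acute ethanol exposure and control. The members were all genes of the deposited table that KEGG (a database of curated pathways) lists under at least 1 of 7 pathways, namely DNA replication, base excision repair, nucleotide excision repair, mismatch repair, homologous recombination, non-homologous end-joining and the Fanconi anemia pathway, leaving out symbols that start with Ccn or Cdk. This rule gave 186 of 28880 genes. It used no measured value. Of the 186 members, 146 belonged to 1 pathway and 8 to 5 pathways, and each member was also placed in 1 of 11 roles so that it was described once.

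Whole livers of male wild type C57BL/6J mice of 6 to 8 weeks were profiled by bulk RNA-seq. In the ethanol group (n = 3), mice were fasted for 12 h, received 1 oral dose of 6 g/kg ethanol as a 50% solution, and were dissected 24 h later. The control group (n = 3) received no ethanol, and whether these mice were fasted is not given in the sources used here, so ethanol and fasting cannot be told apart. The labels name a different mouse for each library and place all 6 libraries in batch 1.

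Replication of a chromosome starts when the MCM2-7 hexamer, the replicative helicase, opens the double strand. DNA polymerases alpha, delta and epsilon then copy both strands. The PCNA clamp that the RFC complex loads holds delta and epsilon on the template, and DNA ligase 1 seals the Okazaki fragments of the lagging strand. Repair pathways reuse much of this machinery. Glycosylases start base excision repair by removing damaged bases, the XP proteins cut out bulky lesions, the MutS and MutL proteins correct mismatches, broken ends are joined directly or repaired from the sister chromatid, and the Fanconi anemia proteins unhook crosslinks between the strands. Most hepatocytes of an adult liver are not dividing, and many genes of the replication machinery are transcribed mainly when a cell enters S phase.

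The 6 libraries held 60514417 to 74210869 counts. Members took 0.128 to 0.144% of the counts in the ethanol libraries and 0.230 to 0.234% in the control libraries. The 1000 most abundant genes took 80.7 to 82.9% of the counts in ethanol and 73.7 to 74.5% in control, and the TMM factors that correct for such a shift were 0.768 to 0.836 and 1.26 to 1.27. Levels are therefore given as CPM (counts scaled to a common library size, here the TMM one) within a gene, and as FPKM, which is per length of transcript, where genes are compared with each other. Hepatocyte markers summed to 129575 to 133267 CPM in ethanol and 71368 to 83718 CPM in control. All 7 were present, and 2 of them rose. Erythroid markers, of which 4 of the 5 tested rose, summed to 579 to 864 CPM in ethanol and 180 to 220 CPM in control. Neutrophil markers, of which 3 of the 4 tested rose and Mpo was at 0 in every ethanol library, summed to 2.71, 3.22 and 13.7 CPM in ethanol and 1.15 to 1.63 CPM in control. T cell markers, of which 1 of the 4 tested fell and Cd8a was at 0 in every ethanol library, summed to 0.785 to 1.16 CPM in ethanol and 2.28 to 3.07 CPM in control. Of the other lists, 2 of 7 stellate markers fell and 0 rose (125 to 155 CPM in ethanol, 118 to 155 CPM in control), 1 of the 5 cholangiocyte markers tested rose, which was Sox9 (57.6 to 75.02 and 31.8 to 73.3 CPM), 2 of 7 endothelial markers fell and 2 rose (90.1 to 159 and 95.1 to 112 CPM), 1 of 5 B cell markers fell (0.898 to 2.78 and 1.35 to 2.55 CPM), and 0 of 7 Kupffer cell markers were called (81.6 to 111 and 105 to 113 CPM). The part of these shifts in the results below was not tested, and in whole tissue fewer cells of a type and less RNA per cell cannot be told apart.

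In the main test, replication and repair genes were lower after ethanol more often than genes at large, and this held for the weakly expressed members and not for the abundant ones. Of the 176 members with enough counts to test, 44 (25%) fell and 7 (3.98%) rose, where a call needs an adjusted p under 0.05 in edgeR's quasi-likelihood test and a log2 fold change beyond 1. Over all 16717 genes tested, 13.8% fell and 10.4% rose. The median log2 fold change of the members was -0.49, beside -0.04 over all genes. Without the threshold on the fold change, 68 members were lower and 27 higher, beside a background of 21.5% in either direction. All 3 ethanol libraries lay below all 3 control libraries for 87 members, where 31.0% of all genes did so, and above them for 34 members, where 28.0% did. Each ethanol library showed the shift by itself, with a median deviation of the members from the control mean of -0.46, -0.39 and -0.44 on the log2 scale in ethanol replicates 1, 2 and 3, beside -0.05, -0.05 and -0.03 over all genes.

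The split of calls between the directions depended on the scaling. With the trend of each library with transcript length removed, 27 members fell and 12 rose, and the share of lower calls among all calls went from 86.3% to 69.2%. The excess over all genes was smaller in this scaling, with 15.3% of members against 10.6% of all genes lower and 6.82% against 12.6% higher, and the median of all genes moved to 0.10. These 27 were all among the 44, and the 17 calls lost included Msh6, Rfc1, Lig1, Pola2, Pold3, Ogg1, Ercc2, Gtf2h2 and Polh. All 7 higher calls were kept. With library size alone in place of TMM, 87 fell and 4 rose, but this scaling moved the median of all genes to -0.71. There, 49.4% of members and 32.2% of all genes fell. All 44 lower calls were among the 87, and of the higher calls Ung, Rbbp8, Fan1 and Hes1 were kept. The gap between the median of the members and that of all genes was -0.45 in the main scaling, -0.45 with library size alone and -0.40 with the length trend removed. With limma on log2(FPKM + 1), a scale that understates the change of low genes, the share that fell was 11.6% for members and 10.7% for all genes, so that little of the excess was left.

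Abundance ordered the members. Among the 71 members with a mean below 1 FPKM over all 6 libraries, 23 (32.4%) fell and 3 (4.23%) rose. Of all genes of that band, 18.6% fell and 7.82% rose. Among the 78 members between 1 and 5 FPKM, 21 (26.9%) fell and 4 (5.13%) rose, beside 13.5% and 10.2% of all genes of the band. Among the 27 members at 5 FPKM or more, 0 passed both thresholds in either direction, while 6.22% of all genes in the band fell and 14.8% rose. By adjusted p alone, 5 of these members (18.5%) were lower and 11 (40.7%) higher, near the 15.8% and 41.8% of all genes of the band. The medians of the log2 fold change in these bands were -0.97, -0.45 and 0.17 for members and -0.39, -0.06 and 0.29 for all genes. The same order of the bands held with the length trend removed, where the medians of the members were -0.74, -0.30 and 0.29. In that scaling 23.9% of the members below 1 FPKM fell against 15.1% of all genes of the band. Between 1 and 5 FPKM, 10 members (12.8%) fell, near the 9.42% of all genes. In this band 7 of 78 members rose, beside 680 of all 5266 genes. With library size alone, 5 of the 27 abundant members (18.5%) fell, near the 19.3% of all genes of the band. The median of these members was -0.50, beside -0.38 for all genes of the band.

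**Figure D1:**
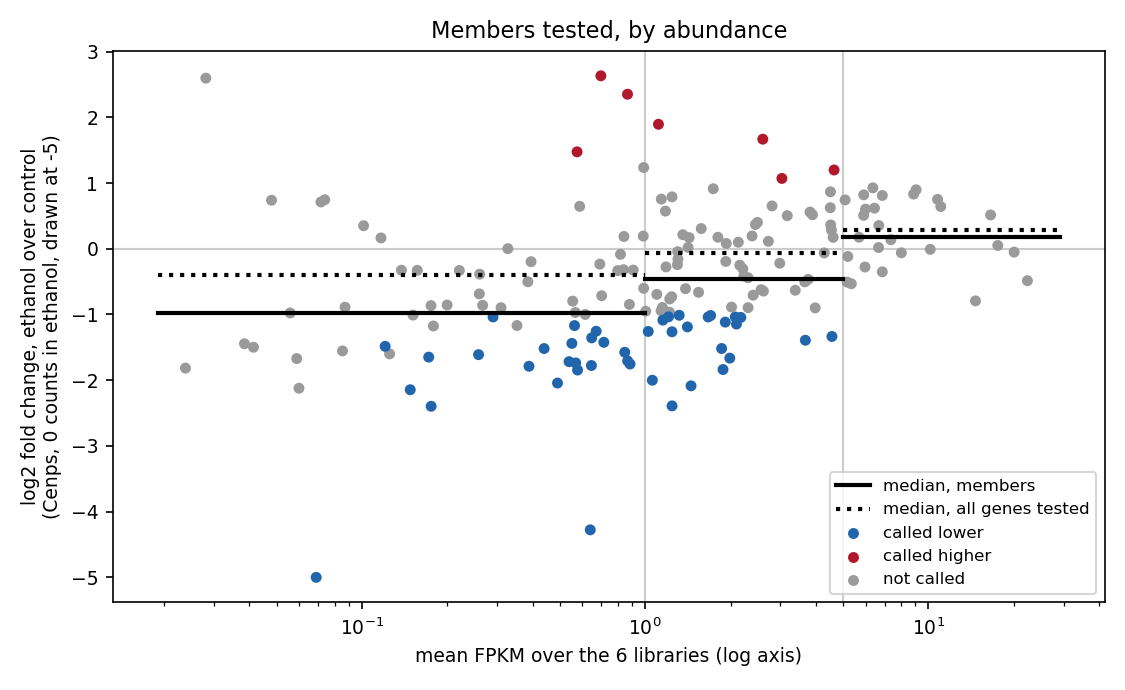
Log2 fold change of the 176 members tested (ethanol over control, vertical axis) against mean FPKM over the 6 libraries (log axis). Each point is a gene, coloured by its call, and horizontal lines give the median of the members (solid) and of all genes tested (dotted) in the bands below 1, 1 to 5 and at least 5 FPKM. Cenps, with 0 counts in ethanol, is drawn at the bottom of the scale. The members' median is below the dotted line in all 3 bands, at -0.97, -0.45 and 0.17.

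The abundant members account for most of the signal of the whole set, since these 27 genes made up 54.8% of its summed FPKM. The summed level of all 186 members on the TMM scale was 7.21% lower in ethanol, at 1673 to 1732 CPM against 1832 to 1847 CPM in control, and the ranges did not overlap. By library size alone the gap was wider, at the 0.128 to 0.144% against 0.230 to 0.234% of all counts given above. Rad23b, which hands damaged DNA to nucleotide excision repair, was the most abundant member at 22.4 FPKM and stood at 106, 114 and 101 CPM in ethanol against 154, 150 and 147 CPM in control, a log2 fold change of -0.49 ± 0.10 (SE, n = 3 per group; adjusted p = 0.00648). Its difference is clear of the spread between mice but under the fold threshold. Ddb1, an adaptor of the ubiquitin ligase that finds ultraviolet lesions, was next at 20.1 FPKM and differed by -0.05 ± 0.10. Babam1, a subunit of the BRCA1-A complex, had 17.6 FPKM and a log2 fold change of 0.05 ± 0.11, with its groups overlapping.

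**Figure D2:**
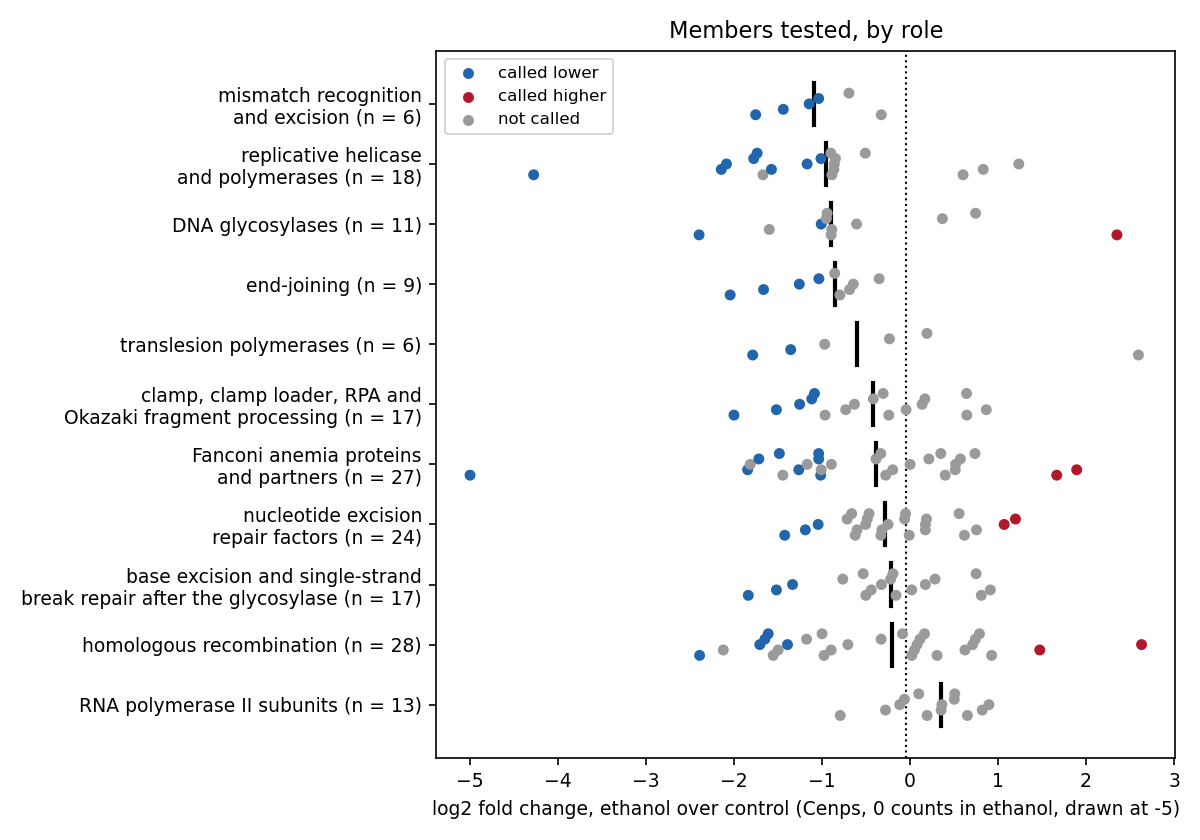
Log2 fold change of the 176 members tested (ethanol over control, horizontal axis), each a point coloured by its call, in 11 roles ordered by their median (black bar). Cenps, with 0 counts in ethanol, is drawn at the left end of the scale. The dotted line is the median of all genes tested, -0.04. Medians run from -1.09 for mismatch recognition to 0.35 for RNA polymerase II subunits.

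Among the roles, the replicative helicase and polymerases stood near the low end, with 8 of 18 members (44.4%) lower, 0 higher and a median of -0.96 on the log2 scale, where 13.8% of all genes fell and 10.4% rose. With the length trend removed 6 were lower, beside 10.6% of all genes. Set against the median of all genes, they were at -0.91 in the main scaling and -0.92 with the length trend removed, mismatch recognition at -1.05 and -0.97, the glycosylases at -0.85 and -0.82, end-joining at -0.81 and -0.82, base excision repair after the glycosylase at -0.18 and -0.10, and homologous recombination at -0.16 and -0.09. Within the MCM2-7 hexamer the 6 subunits did not move together. Mcm5 had 0.348, 0.0491 and 0.257 CPM in ethanol against 1.75, 6.04 and 4.89 CPM in control, which rests on 20, 3 and 14 counts against 164, 460 and 403. It fell by 4.28 ± 0.72 on the log2 scale (adjusted p = 0.00357), a 19.4-fold lower level and the largest fall among the members with counts in both groups. Mcm6 had 3.20, 2.01 and 1.89 CPM in ethanol against 4.08, 13.7 and 12.4 CPM in control and fell by 2.09 ± 0.47 (adjusted p = 0.0108). Mcm3, at 1.13, 1.32 and 2.07 CPM against 3.24, 5.66 and 4.59 CPM, fell by 1.57 ± 0.33 (adjusted p = 0.00789). For all 3 genes every ethanol library was below every control library.

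Mcm7 was also below control in every ethanol library, at 6.20, 5.76 and 6.45 CPM against 10.04, 12.1 and 11.9 CPM, but its log2 fold change of -0.89 ± 0.14 stayed under the fold threshold (adjusted p = 0.00304). Mcm4 had 1.69, 1.14 and 3.83 CPM against 2.75, 4.49 and 4.74 CPM, with overlapping groups and no call. Mcm2 had the opposite sign, at 15.6, 13.5 and 4.10 CPM in ethanol against 2.44, 5.97 and 5.68 CPM in control. Its log2 fold change of 1.24 ± 0.53 was not called (adjusted p = 0.0977). Ethanol replicate 3 lay within the control range, and ethanol replicates 1 and 2 lay above it. Mcm2 was called higher in 2 of the 14 alternative fits that held it. Control replicate 1 had the lowest level of all controls for each of the 6 subunits. The same library was the lowest control for cholangiocyte markers, with a summed 31.8 CPM against 66.6 and 73.3 CPM. It was also the lowest for stellate markers (118 against 155 and 155 CPM) and proliferation markers (7.18 against 9.57 and 10.2 CPM). Kupffer cell, T cell, neutrophil and erythroid markers were lowest in it as well, while hepatocyte, endothelial and B cell markers were highest. The part of these lists in the MCM levels was not tested. Without control replicate 1, 36 members (20.5%) fell and 6 (3.41%) rose, beside 10.2% and 8.79% of all genes. Mcm3, Mcm5 and Mcm6 kept their calls in every fit that left out 1 library.

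Promoters of replication genes are known for binding sites of E2F, the transcription factor family that drives S phase genes, and the stretch before the start of 4 members is shown because it holds letters of such a site. Each runs 5′ to 3′ over the 250 bases before the start on the strand of the gene (RefSeq sequence, build GRCm38.p6), with matches to the E2F letters in capitals.

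Mcm5, chr8:75109259-75109508, plus strand: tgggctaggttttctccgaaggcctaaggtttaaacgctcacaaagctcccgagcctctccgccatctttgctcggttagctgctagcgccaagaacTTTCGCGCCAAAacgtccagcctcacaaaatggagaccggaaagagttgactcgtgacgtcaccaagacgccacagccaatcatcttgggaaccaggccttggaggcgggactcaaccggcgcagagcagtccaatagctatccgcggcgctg
Mcm6, chr1:128359706-128359955, minus strand: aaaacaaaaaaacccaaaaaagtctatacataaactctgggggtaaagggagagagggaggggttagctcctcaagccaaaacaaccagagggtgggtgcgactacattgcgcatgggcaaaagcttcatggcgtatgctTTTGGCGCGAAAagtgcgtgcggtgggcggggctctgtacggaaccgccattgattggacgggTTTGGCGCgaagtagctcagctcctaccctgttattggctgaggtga
Mcm7, chr5:138171884-138172133, minus strand: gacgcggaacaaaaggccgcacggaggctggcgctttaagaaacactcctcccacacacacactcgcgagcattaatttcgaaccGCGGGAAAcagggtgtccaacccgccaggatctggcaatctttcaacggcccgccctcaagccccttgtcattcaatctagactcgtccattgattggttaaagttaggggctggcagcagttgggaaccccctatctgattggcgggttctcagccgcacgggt
Msh3, chr13:92355004-92355253, minus strand: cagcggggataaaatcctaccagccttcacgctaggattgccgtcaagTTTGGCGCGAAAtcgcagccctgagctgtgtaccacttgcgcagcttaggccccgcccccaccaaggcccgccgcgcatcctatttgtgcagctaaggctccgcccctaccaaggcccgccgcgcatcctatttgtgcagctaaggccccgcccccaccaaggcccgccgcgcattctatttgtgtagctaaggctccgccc

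In Mcm5, Mcm6 and Msh3 the match on one strand overlaps a match on the other, so the capitals run over a longer stretch. Mcm7 has 2 starts in the RefSeq table, and the one with a match is shown. The letters searched for E2F were TTTCCCGC, TTTCGCGC, TTTGCCGC and TTTGGCGC on both strands, over the 250 bases before and 50 bases after each start. Of the 147 members with a promoter in the RefSeq table, 28 (19.0%) held at least 1 match, beside 4.45% of all genes tested and 2.60% of all genes with a promoter in that table. The role of the helicase and polymerases had a match in 9 of 15 genes. Among members that fell, 12 of 37 (32.4%) held one, and among the members tested that did not fall, 14 of 106 (13.2%). Over all genes that fell, the share was 4.44%. Pole4, a small subunit of polymerase epsilon, held a match 34 or 43 bases before its start, depending on which of 2 neighbouring starts is taken, and had a higher level in every ethanol library, at 18.6, 17.7 and 23.3 CPM against 12.7, 13.4 and 13.2 CPM (0.60, without a call, and -0.07 under library size alone). The CCAAT letters of the CCAAT box, also on both strands, occurred in 55.1% of members and 42.8% of all genes tested, with 45.9% among members that fell and 59.4% among those that did not. The letters TTTGAA and TTCGAA of the CHR, an element of cell cycle promoters, occurred in 16.3% and 16.9%, with 1 of 37 members that fell (2.70%) and 20 of 106 that did not (18.9%). A match is a description of letters and was not tested as a bound site.

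**Figure D3:**
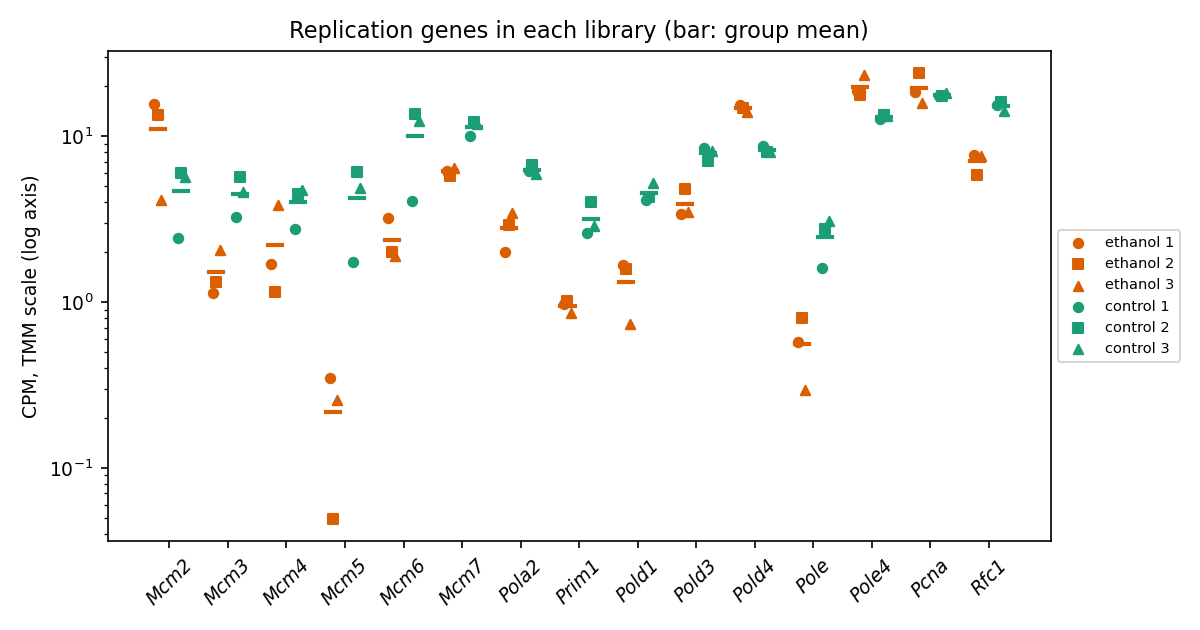
CPM on the TMM scale (log axis) of 15 replication genes in each library. Circles, squares and triangles are replicates 1, 2 and 3 of ethanol (orange) and control (green), and bars are group means. Mcm5 lies lowest in ethanol, Mcm2, Pold4 and Pole4 lie higher in ethanol on average, and Pcna overlaps.

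For the polymerases, the catalytic subunits of delta and epsilon fell while the smallest subunits did not. Pole, the catalytic subunit of the leading strand polymerase epsilon, had 0.574, 0.801 and 0.293 CPM in ethanol against 1.61, 2.74 and 3.07 CPM and fell by 2.15 ± 0.44 (adjusted p = 0.00781). Pold1, the catalytic subunit of polymerase delta, had 1.67, 1.57 and 0.733 CPM against 4.12, 4.30 and 5.21 CPM and fell by 1.78 ± 0.34 (adjusted p = 0.00565). The groups were apart for both. Prim1, which makes the RNA primer, fell by 1.74 ± 0.27 (adjusted p = 0.00244), with ethanol libraries at 0.861 to 1.01 CPM against 2.60 to 4.03 CPM. Pola2, the regulatory subunit of polymerase alpha, fell by 1.17, and Pold3, an accessory subunit of delta, fell by 1.01, both with separate groups. The call of Pola2 was lost without ethanol replicate 1, and that of Pold3 in 4 of 6 fits that left out 1 library. Pola1, the catalytic subunit of alpha, was at -0.87 on the log2 scale without a call (adjusted p = 0.0788). Pold4, the smallest subunit of delta, was higher in every ethanol library, at 15.5, 14.7 and 14.0 CPM against 8.77, 8.01 and 8.06 CPM. Its log2 fold change of 0.83 ± 0.12 had an adjusted p of 0.00191 but was under the fold threshold. By FPKM, Pold4 (8.87) and Pole4 (5.99) were above Pold1 (0.645) and Pole (0.148). Proliferation markers summed to 3.35 to 4.63 CPM in ethanol against 7.18 to 10.2 CPM. Of the 12 tested from this list of 15, 3 (25%) fell (Birc5, Tpx2 and Aurka) and 1 (8.33%) rose (Plk1), beside 13.8% and 10.4% of all genes, and Cenpe was at 0 in every ethanol library. Their part in the fall of the polymerases was not tested.

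The clamp, its loader and the proteins that finish the lagging strand gave 5 lower (29.4%) and 0 higher calls among 17, beside 13.8% and 10.4% of all genes. With the length trend removed, 1 of these 5 calls was left, that of Dna2, and 1 member was higher. Beside 10.6% and 12.6% of all genes, no excess of calls was left. The median of the role was still below that of all genes, by -0.37 in the main scaling and -0.46 with the length trend removed. Pcna, the clamp itself, had 18.6, 24.0 and 15.9 CPM in ethanol against 17.4, 17.5 and 18.3 CPM in control, a log2 fold change of 0.14 ± 0.16 (adjusted p = 0.521), so that no difference beyond the spread was detectable. Of the 5 subunits of its loader, 2 were called lower, and neither call was left with the length trend removed. Rfc1, the large subunit, had 7.72, 5.84 and 7.55 CPM against 15.5, 16.1 and 14.2 CPM and fell by 1.12 ± 0.15 (adjusted p = 0.00159), and Rfc3 fell by 1.25 with a call that only the fit without ethanol replicate 2 kept among those that left out 1 library, while Rfc4 and Rfc5 were lower by adjusted p alone, at -0.97 and -0.73, and Rfc2 was not called, at -0.42 with overlapping groups. Dna2, a nuclease and helicase that trims flaps of Okazaki fragments, had 1.46, 1.90 and 3.52 CPM against 10.2, 8.90 and 8.38 CPM and fell by 2.0 ± 0.33 (adjusted p = 0.00327). Fen1, the main flap nuclease, had a log2 fold change of -0.24 with overlapping groups. Lig1, the ligase of the lagging strand, fell by 1.52 ± 0.51, but its call (adjusted p = 0.0465) was lost when ethanol replicate 1, control replicate 2 or control replicate 3 was left out. Rpa1, the large subunit of the protein that covers single strands, was at -0.63 on the log2 scale, with an adjusted p of 0.0293, and did not pass the fold threshold. Ssbp1, which covers single strands in mitochondria, fell by 1.09 ± 0.17 (adjusted p = 0.00238), at 4.92, 6.66 and 6.32 CPM against 13.0, 11.4 and 13.6 CPM. The 3 subunits of RNase H2, which removes ribonucleotides from DNA, were higher in every ethanol library, with Rnaseh2a at 25.4, 19.4 and 24.0 CPM against 10.3, 13.3 and 14.1 CPM (log2 fold change 0.87, adjusted p = 0.00599), Rnaseh2b at 0.65 and Rnaseh2c at 0.64. Of these, Rnaseh2b had an adjusted p of 0.0539, and the signs of Rnaseh2b and Rnaseh2c turned under library size alone, both at -0.02.

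Mismatch recognition held the lowest median of all roles, -1.09, with 4 of 6 members tested (66.7%) lower and 0 higher, beside 13.8% and 10.4% of all genes. With the length trend removed 2 were lower, beside 10.6% of all genes. Msh6, a MutS protein that finds single mismatches, had 4.17, 5.20 and 4.38 CPM in ethanol against 9.77, 9.40 and 9.08 CPM and fell by 1.04 ± 0.15 (adjusted p = 0.00212). Msh3, its counterpart for larger loops and one of the promoters shown above, had 3.28, 4.40 and 1.81 CPM against 8.02, 9.28 and 8.51 CPM and fell by 1.44 ± 0.31 (adjusted p = 0.00923). Mlh3, a MutL protein of meiotic crossing over, fell by 1.75 ± 0.19 (adjusted p = 0.000626), to 2.43, 2.78 and 3.30 CPM from 8.45 to 10.6 CPM. The groups of these genes were widely apart. Pms2, another MutL protein, had 0.313, 0.441 and 2.33 CPM against 1.06 to 1.55 CPM, with ethanol replicate 3 above all controls. The nuclease Exo1 had 0 counts in every ethanol library and was too low to test.

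Every member of the end-joining role had a negative log2 fold change, as did 8639 of all 16717 genes tested, and 4 of 9 (44.4%) fell, beside 13.8% of all genes. With the length trend removed 3 fell, beside 10.6% of all genes. The Ku proteins Xrcc5 and Xrcc6, which hold broken ends, were both below control in all ethanol libraries but under the fold threshold. Xrcc5 stood at 14.8, 16.0 and 16.0 CPM against 20.6, 19.3 and 19.9 CPM (-0.35, adjusted p = 0.0292), and Xrcc6 at 9.39, 9.86 and 7.97 CPM against 13.9, 13.1 and 15.6 CPM (-0.64, adjusted p = 0.00987). Prkdc, the kinase that Ku recruits, differed by -0.80 (adjusted p = 0.032) and the nuclease Dclre1c (Artemis) by -0.69 (adjusted p = 0.128). The enzymes of the last step were lower by larger factors. Lig4, the ligase, had 0.469, 0.556 and 1.72 CPM in ethanol against 4.22, 3.19 and 3.90 CPM and fell by 2.04 ± 0.51 (adjusted p = 0.0158). Ethanol replicate 3 was the highest of its group, and without it Lig4 fell by 2.86. The ligase's partner Xrcc4 fell by 1.26 ± 0.22 (adjusted p = 0.0037), at 2.10, 2.67 and 2.51 CPM against 5.75, 6.88 and 4.80 CPM. Nhej1 (XLF), the third component of the ligation complex, fell by 1.66 ± 0.35 (adjusted p = 0.00833), at 2.10, 1.23 and 0.898 CPM against 3.68, 5.32 and 4.43 CPM. Polm, a polymerase for ends, fell by 1.04, a call kept in 2 of 6 fits that left out 1 library. The call of Lig4 was lost without control replicate 1 or 3, while those of Xrcc4 and Nhej1 were kept in all 6.

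**Figure D4:**
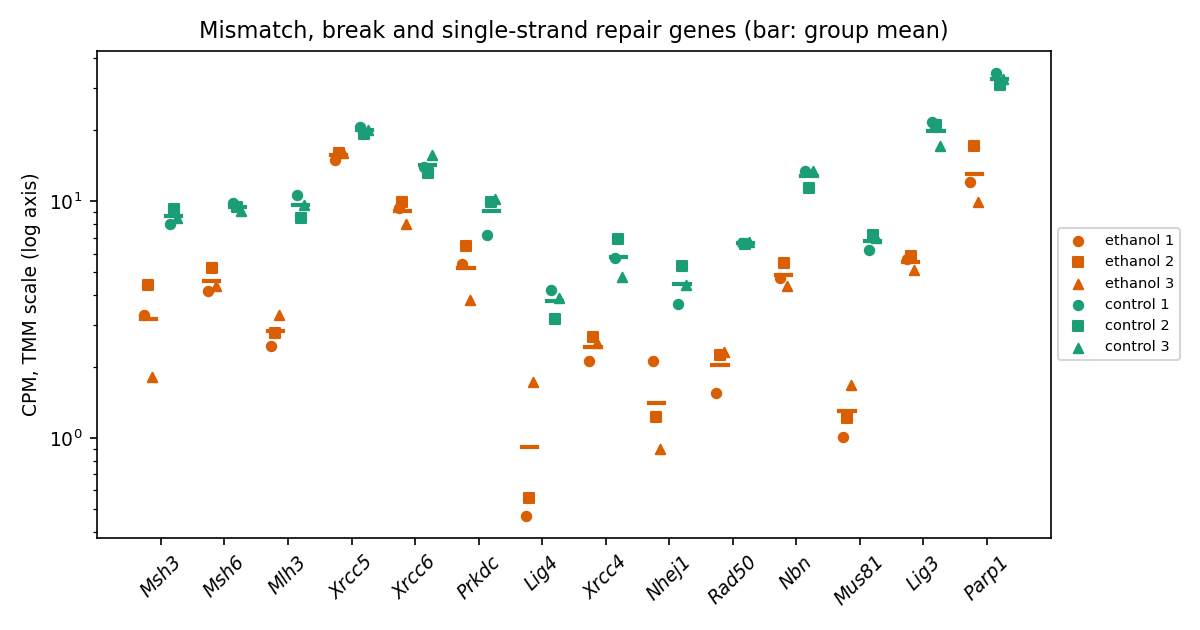
CPM on the TMM scale (log axis) of 14 genes of mismatch repair, end-joining, break recognition and single-strand break repair in each library, with symbols for replicates, orange for ethanol, green for control and bars for group means. All 3 ethanol libraries lie below all 3 control libraries for each gene drawn. Not drawn are genes of these processes whose groups overlap, such as Pms2 and Polb, or that are higher in ethanol, such as Apex1.

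In homologous recombination, 5 of 28 members (17.9%) fell and 2 rose, near the 13.8% of all genes that fell, and with the length trend removed 4 fell and 4 rose. Sensors of broken ends were among the fallen. Rad50, a structural subunit of the MRN complex that binds ends, had 1.55, 2.24 and 2.31 CPM in ethanol against 6.62, 6.59 and 6.70 CPM and fell by 1.71 ± 0.21 (adjusted p = 0.00114). Nbn, the subunit that recruits the ATM kinase, had 4.74, 5.46 and 4.36 CPM against 13.4, 11.4 and 13.4 CPM and fell by 1.39 ± 0.16 (adjusted p = 0.000741). Mre11a, the nuclease of the complex, had 1.58, 1.26 and 0.916 CPM against 2.27, 2.22 and 2.51 CPM, a log2 fold change of -0.90 (adjusted p = 0.0364) without a call. All 3 subunits were thus below control in every ethanol library. Atm, the kinase itself, fell by 1.61 ± 0.33 (adjusted p = 0.0076), at 1.23, 1.72 and 0.733 CPM against 3.40 to 3.95 CPM. Mus81, a nuclease that resolves branched DNA, had 1.01, 1.21 and 1.67 CPM against 6.21, 7.22 and 6.96 CPM and fell by 2.39 ± 0.24 (adjusted p = 0.000507), 5.25-fold. Xrcc2, a factor of strand exchange, fell by 1.65 (adjusted p = 0.0379), with a call that only the fit without ethanol replicate 3 kept.

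Some genes of strand exchange were near the limit of detection. Palb2, which brings BRCA2 to breaks, had 0.278, 0.180 and 0 CPM in ethanol against 0.583 to 0.748 CPM and was not called (adjusted p = 0.102). Brca1 and Brca2, the large mediators of recombination, differed by 0.16 ± 0.38 and -0.33 ± 0.22 without a call, and for Brca1 the sign depended on the library left out. Of 5 subunits tested of the BRCA1-A complex, which reads ubiquitin at breaks, 0 were called. Babam2 stood at 35.4, 32.6 and 32.9 CPM against 20.3, 19.0 and 21.0 CPM (0.74, adjusted p = 0.00144) and Uimc1 at 53.7, 34.8 and 54.9 CPM against 22.9 to 27.5 CPM (0.93, adjusted p = 0.00729), both above control in every ethanol library and under the fold threshold. Abraxas1, Brcc3 and Babam1 overlapped between groups, at 0.02, 0.08 and 0.05, and Babam1 was at -0.62 under library size alone.

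Base excision repair starts with the glycosylases, and among 11 tested 2 (18.2%) fell and 1 rose, beside 13.8% and 10.4% of all genes. Ung, which removes uracil from DNA, had 9.49, 7.83 and 12.2 CPM in ethanol against 1.51, 2.24 and 2.03 CPM and rose by 2.35 ± 0.25 on the log2 scale (adjusted p = 0.000566), 5.10-fold and the smallest adjusted p among the members that rose. Mbd4, which removes thymine and uracil opposite guanine, moved the other way, from 1.72, 1.27 and 1.28 CPM in control to 0.382, 0.114 and 0.312 CPM in ethanol (fell by 2.40 ± 0.48, adjusted p = 0.00718). Ogg1, the enzyme for oxidized guanine, had 2.12, 1.41 and 1.47 CPM against 3.63, 3.06 and 3.36 CPM and fell by 1.01 ± 0.25 (adjusted p = 0.0155), a call just beyond the fold threshold that 4 of 6 fits with a library left out lost. Neil1 and Nthl1, which act on oxidized pyrimidines, were lower by adjusted p alone, at -0.90 and -0.94.

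After the glycosylase, 3 of 17 members (17.6%) fell and 0 rose, again near the 13.8% of all genes, and with the length trend removed 3 fell and 2 rose. Lig3, the ligase of single-strand breaks in the nucleus and in mitochondria, had 5.68, 5.84 and 5.09 CPM in ethanol against 21.6, 20.8 and 17.0 CPM, fell by 1.84 ± 0.15 and had the smallest adjusted p of all members (0.000213). Parp1, the sensor of strand breaks, had 12.0, 17.1 and 9.88 CPM against 34.7, 31.0 and 32.6 CPM and fell by 1.33 ± 0.20 (adjusted p = 0.00232). Poll, a polymerase for short gaps, fell by 1.52 ± 0.25 (adjusted p = 0.00326). Xrcc1, the scaffold that binds LIG3 and PARP1, was below control in all ethanol libraries, at 4.68, 5.76 and 5.28 CPM against 8.58, 9.76 and 8.34 CPM, but under the fold threshold (-0.76, adjusted p = 0.00762). Polb, the main gap-filling polymerase, overlapped between groups, at 11.7, 10.3 and 11.4 CPM against 11.4, 14.5 and 13.1 CPM. Apex1, the endonuclease that cuts at the abasic site, was higher in every ethanol library, at 23.5, 19.8 and 20.6 CPM against 9.73, 15.5 and 12.7 CPM (0.75 ± 0.18, adjusted p = 0.0151), without passing the fold threshold.

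Of the 24 factors of nucleotide excision repair, 3 (12.5%) fell and 2 (8.33%) rose, near the 13.8% and 10.4% of all genes, and with the length trend removed 1 fell and 2 rose. Ercc1, the partner of the nuclease that cuts on the 5′ side, had 1.51, 1.29 and 0.678 CPM in ethanol against 2.87, 3.06 and 3.44 CPM and fell by 1.42 ± 0.33 (adjusted p = 0.0124). Gtf2h2 and Ercc2 (XPD), subunits of the TFIIH complex that opens DNA, fell by 1.19 ± 0.14 (adjusted p = 0.000959) and by 1.04 ± 0.18 (adjusted p = 0.00378). Ercc3 (XPB), the other helicase of the same complex, was higher in every ethanol library, at 27.7, 21.1 and 24.0 CPM against 15.9, 15.5 and 16.1 CPM, although its log2 fold change of 0.62 became -0.05 under library size alone. Xpa, which verifies the lesion, had 11.6, 10.6 and 20.1 CPM against 6.95, 5.96 and 5.55 CPM and rose by 1.20 ± 0.26 (adjusted p = 0.00986). Ercc5 (XPG), the nuclease of the 3′ side, had 28.9, 30.8 and 22.3 CPM against 14.0, 11.6 and 13.5 CPM and rose by 1.07 ± 0.15 (adjusted p = 0.00191). The lesion sensors Xpc and Ddb2 were not called, at -0.25 and -0.60, and Ercc6, which couples repair to transcription, was at -0.72 (adjusted p = 0.0214) under the fold threshold. The 13 subunits of RNA polymerase II that KEGG places in this pathway had 0 calls in either direction (1 was lower and 3 were higher by adjusted p alone) and a median of 0.35, which is 0.40 above the median of all genes, 0.39 above it under library size alone and 0.19 above it with the length trend removed. Without them, 44 of 163 members (27.0%) fell.

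Among the Fanconi anemia proteins and their partners, 8 of 27 (29.6%) fell and 2 (7.41%) rose, beside 13.8% and 10.4% of all genes. With the length trend removed 5 fell and 2 rose, beside 10.6% and 12.6% of all genes. Cenps (MHF1), which binds FANCM to DNA, had 0 counts in every ethanol library and 12, 15 and 30 counts in control. Against the level of 3 counts in an ethanol library it was at least 4.18-fold lower, and the median of all members is -0.49 with or without this bound. Its partner Cenpx (MHF2) was among the abundant members (16.6 FPKM) and higher in every ethanol library, at 22.3, 24.1 and 22.1 CPM against 16.5, 15.5 and 15.9 CPM (0.51 ± 0.10, adjusted p = 0.0066), under the fold threshold. Telo2, a cochaperone of kinases such as ATM and DNA-PKcs, had 1.53, 2.22 and 1.85 CPM against 7.26, 7.13 and 5.78 CPM and fell by 1.85 ± 0.22 (adjusted p = 0.000926). Rmi1, which works with the BLM helicase, fell by 1.26 ± 0.16 (adjusted p = 0.00111), with 3.96, 4.81 and 4.98 CPM against 11.0, 10.2 and 11.9 CPM. Brip1 (FANCJ), a helicase that binds BRCA1, fell by 1.48 (adjusted p = 0.0151) and Fancg, of the core complex, by 1.72 (adjusted p = 0.00978). Eme2, a partner of MUS81, Fancc, of the core complex, and Wdr48, which activates the deubiquitinase USP1, fell by 1.02 to 1.04, and each lost its call in at least 3 of the fits that left out 1 library. The central pair Fancd2 and Fanci had few counts and was not called. Fancd2 was at 0 to 0.229 CPM against 0.245 to 0.316 CPM (-1.82, adjusted p = 0.286), and Fanci at 0.164 to 0.695 CPM against 0.117 to 0.449 CPM (0.74, adjusted p = 0.467) with overlapping groups. Fanca, Fancm and Slx4 overlapped between groups and were not called. Of 6 translesion polymerases, which copy past lesions, Polh and Poli fell, by 1.79 and 1.36, and 0 rose. This is 33.3% lower beside 13.8% of all genes, and with the length trend removed only Poli was left. The call of Polh (adjusted p = 0.0445) was lost in 4 of 6 fits that left out 1 library, and without ethanol replicate 3 it fell by 2.54.

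The 7 members that rose, 3.98% of those tested beside 10.4% of all genes, came from 4 roles. They did not include a helicase subunit, polymerase or ligase of replication. With so few calls this absence is no result about those genes, and Mcm2 and Pold4 were higher on average without a call. Besides Ung, Xpa and Ercc5, the members that rose were 2 genes of homologous recombination and 2 of the Fanconi anemia pathway. Rbbp8 (CtIP), which starts the trimming of broken ends, had 18.8, 24.7 and 12.7 CPM in ethanol against 2.10, 4.13 and 2.84 CPM and rose by 2.63 ± 0.33 (adjusted p = 0.00118), 6.19-fold and the largest rise among the members. It stood opposite to the MRN genes with which its product works. Fan1, a nuclease for crosslinks, had 12.6, 17.2 and 8.41 CPM against 4.16, 2.73 and 3.38 CPM and rose by 1.89 ± 0.29 (adjusted p = 0.00253). Hes1, a transcription factor of the Notch pathway that KEGG lists among the Fanconi genes, had 7.28, 10.6 and 10.8 CPM against 2.22, 2.97 and 3.86 CPM and rose by 1.67 ± 0.26 (adjusted p = 0.00276). Blm, the helicase that unwinds recombination intermediates, had 9.80, 12.9 and 3.24 CPM against 4.25, 2.68 and 2.40 CPM and rose by 1.47 ± 0.49 (adjusted p = 0.0455). For Blm the groups overlapped, with ethanol replicate 3 within the control range, and 5 of 6 fits that left out 1 library lost the call. Rbbp8, Fan1, Hes1 and Ung kept theirs in all 6 fits.

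**Figure D5:**
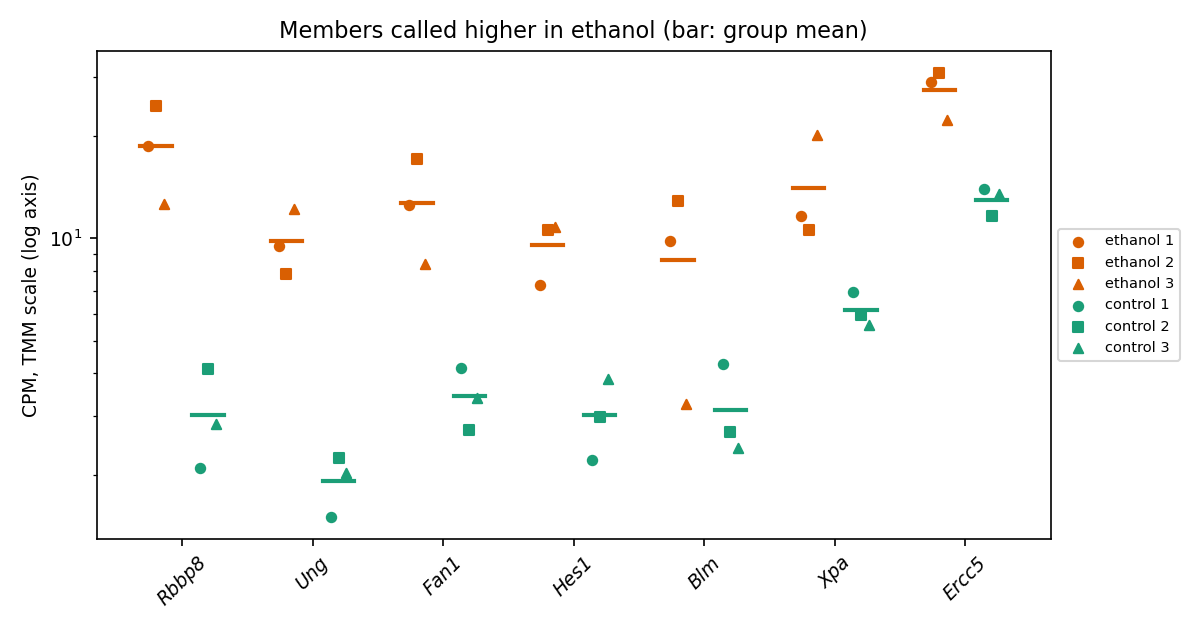
CPM on the TMM scale (log axis) of the 7 members that rose, in each library, with symbols for replicates, orange for ethanol, green for control and bars for group means. The groups are apart for 6 genes. For Blm, ethanol replicate 3 (3.24 CPM) lies within the control range.

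Members also differed by transcript length, taken here as the length by which the deposited FPKM values had been scaled. In 3 equal classes by the length of all genes tested, divided at 2.85 and 5.62 kb, 5 of 37 short members (13.5%), 18 of 61 of middle length (29.5%) and 21 of 78 long members (26.9%) fell, beside 10.5%, 15.4% and 15.5% of all genes. For the short members the share was near that of all genes. Among the 98 members tested that overlap no other gene on either strand in the table, 24 (24.5%) fell and 4 (4.08%) rose. Over all genes tested, overlapping ones included, the shares were 13.8% and 10.4%. The remaining 78 overlap another gene, among them Mus81, Lig3, Parp1, Msh6, Rbbp8, Blm and Xpa, and since the use of strand in counting is not given in the sources used here, reads of the neighbour could be part of their counts. Tdg and the copy Tdg-ps are near-identical and their counts are uncertain.

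Genes that work beside the members but lie outside the KEGG lists gave a mixed picture. Of 23 tested genes of origin licensing and firing, 6 (26.1%) fell and 1 (4.35%) rose, beside 13.8% and 10.4% of all genes. Gins2, part of the active helicase, and Mcm8, a relative of the MCM subunits, fell by 2.96 and 2.09 (adjusted p = 0.00608 and 0.00659), and Orc2, of the origin recognition complex, rose by 1.14 (adjusted p = 0.00724). Of 11 genes of deoxynucleotide supply, 2 (18.2%) fell and 1 (9.09%) rose, near the shares of all genes, the last being Rrm2, the regulated subunit of ribonucleotide reductase, at 7.07, 7.70 and 8.91 CPM against 1.76, 2.34 and 2.51 CPM (adjusted p = 0.00079). Damage signalling had 5 lower (22.7%) and 5 higher (22.7%) among 22. Cdkn1a (p21), the inhibitor of cyclin-dependent kinases, rose by 4.32 (adjusted p = 5.61e-05), at 265, 263 and 353 CPM against 11.9, 16.9 and 15.4 CPM, and Gadd45g, a stress sensor, rose by 4.07 (adjusted p = 0.000243). Its relatives Gadd45b and Gadd45a rose by more, 7.59 and 7.34 (adjusted p = 0.000586 and 0.000828), with ethanol replicate 3 the lowest of its group at 50.4 CPM for Gadd45b and 21.9 CPM for Gadd45a. Of the 5 that fell, Trp53bp1 (53BP1), which steers breaks to end-joining, did so by 1.35 (adjusted p = 0.000508), its upstream ubiquitin ligase Rnf168 by 1.05 (adjusted p = 0.00251), Trp53 (p53), the transcription factor of the damage response, by 1.39 (adjusted p = 0.00666), and the checkpoint genes Rad1 and Chek2 by 2.08 and 2.99 (adjusted p = 0.0109 and 0.0334).

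The calls rest on 3 mice per group. Of the 44 lower calls, 27 were kept in each of the 6 fits that left out 1 library, and of the 7 higher calls, 4 were. Of the rest, Ercc1, Pola2, Ssbp1 and Xpa kept their calls in 5 fits, Msh6, Brip1, Lig4 and Ercc5 in 4, Lig1, Ercc2, Eme2 and Wdr48 in 3, Ogg1, Pold3, Polm and Polh in 2, and Rfc3, Fancc, Xrcc2 and Blm in 1. No member had a call in one direction in the main fit and the other direction under any alternative tried. The 10 members that were not tested (Neil3, Rmi2, Gm38574, Gm6195, Sycp3, Bard1, Eme1, Brcc3dc, Exo1 and Rsph10b) did not pass the filter on low counts. DESeq2 and edgeR without that filter tested all 186 members, and Neil3 was called lower in 1 of these fits. The filter's level was 0.139 CPM, here by library size alone and not on the TMM scale. Of the members tested, Pole2, Ube2t and Cenps were under that level in all ethanol libraries and passed through the control group, while 0 passed through the ethanol group only.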

How the data were processed

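Members, roles, gene lists and the rule for named genes were chosen with earlier results of these data known. The authors deposited 1 table with a raw read count per Ensembl gene and library, and the deposited FPKM values beside it are scaled by the authors to transcript length and library size. The authors removed adaptor, low-quality and ambiguous reads. The aligner and counter are not given in the sources used here. The labels name GRCm38, but only 2.14% of gene starts in the table match a GRCm38 annotation, so no coordinate of the table is printed and promoter positions are those of RefSeq. The table holds 1 column of counts that matches no library, which was not used. Some columns hold the annotation (GO, KEGG), of which KEGG chose the members.

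Counts were tested in edgeR 4.0.16 (R 4.3.3; filterByExpr, TMM, quasi-likelihood test, two-sided, Benjamini-Hochberg adjustment over 16717 genes, which carried a common biological coefficient of variation of 0.299). On simulated counts with 180 changed genes of log2 fold change 2, 70.0% of these were called, with 6 false calls among 16115 genes. The 180 leave out changed genes that missed the filter on low counts. The simulation held no shift in composition between the groups, so it cannot show how the calls depend on the scaling. No libraries of a group were duplicates (chi-square over genes divided by its degrees of freedom, 54.8 to 536). Totals of 60514417 to 74210869 counts set the precision, and 3 counts were taken as the floor. Alternatives used DESeq2 1.42.0 and limma 3.58.1. Named were, per pathway, the 3 lower and 3 higher calls of smallest adjusted p with separate groups, the most abundant member and fixed role genes. Other members named were chosen after their values were seen. Some members covered by this rule are not reported here.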

Additional observations from a re-analysis of the deposited data

How the results depend on the processing

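The main values were 44 members lower, 7 higher and a gap of -0.451 between the median of the members and that of all genes on the log2 scale. The count lower was 87 with library size alone, 27 with the length trend removed, 19 with limma on log2(FPKM + 1), 78 with limma on log2(FPKM + 0.1), 25 for genes of at least 1 FPKM, 68 without the fold threshold and 24 for members that overlap no other gene. The share lower in the same order was 49.4, 15.3, 11.6, 47.6, 23.8, 38.6 and 24.5% of members, beside 32.2, 10.6, 10.7, 31.0, 12.1, 21.5 and 13.8% of all genes. The count higher was 4, 12, 0, 3, 3, 27 and 4 in the same order. This was 2.27, 6.82, 0, 1.83, 2.86, 15.3 and 4.08% of members, beside 5.06, 12.6, 2.55, 4.70, 10.6, 21.5 and 10.4% of all genes. The limma fits differ from the main one in the test, the filter and the scaling as well as in the pseudocount. The median gap was -0.397 with the length trend removed, -0.179 and -0.328 with limma, -0.312 at 1 FPKM or more and -0.523 for members that overlap no other gene, for which the genes set beside them were still all 16717 tested, overlapping ones included. DESeq2 gave 48 lower (25.8% against 10.5% of all genes) and 8 higher (4.30% against 7.26%). Leaving out 1 library gave 32 to 46 lower, 6 to 7 higher and a median gap of -0.480 to -0.412. In these fits 18.1 to 26.0% of members and 9.88 to 16.5% of all genes were lower. The shares higher were 3.39 to 3.95% of members and 8.57 to 10.9% of all genes. The cause of these differences was not tested. Genes without a call changed sign as follows. Under library size alone, limma with 1 and limma with 0.1, Babam1 was at -0.617, -0.591 and -0.622, Brca1 at -0.494, -0.0506 and -0.270, Cenpx at -0.152, -0.149 and -0.157, Ercc3 at -0.0546, -0.0541 and -0.0622, Fanca at -0.307, -0.0288 and -0.175, Pcna at -0.521, -0.485 and -0.549, Pole4 at -0.0695, -0.0677 and -0.0786, Rnaseh2b at -0.0231, -0.00937 and -0.0223, Rnaseh2c at -0.0238, -0.0447 and -0.0502 and Tdg at -0.302, -0.220 and -0.300. Babam1 was at -0.0546 at 1 FPKM or more, and Polb, Slx4 and Ddb1 at 0.00601, 0.0287 and 0.193 with the length trend removed. Leaving out 1 library gave -0.0130 to 0.129 for Babam1, -0.0827 to 0.418 for Brca1, -0.686 to 0.0333 for Fancm, -0.0434 to 0.276 for Pcna and -1.75 to 0.0939 for Pms2.

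The replicate numbers did not pair the libraries, since deviations of same-numbered libraries correlated at -0.04, -0.02 and -0.01. The replicate block gave 40 lower (22.7% against 12.0% of all genes), 7 higher (3.98% against 9.08%) and a median gap of -0.427.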

Other observations

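Enzymes of direct damage reversal and other repair enzymes that are no members moved in both directions. Of 9 tested, 3 (33.3%) fell and 2 (22.2%) rose, beside 13.8% and 10.4% of all genes. Aplf (an end-joining factor that binds poly-ADP-ribose), Smarcal1 (which reverses stalled forks) and Helq (a repair helicase) fell by 2.52, 1.72 and 1.70 on the log2 scale. Their adjusted p were 0.00143, 0.00245 and 0.0166 in edgeR's quasi-likelihood test. Alkbh2, which removes alkyl groups from DNA bases, had 5.37, 4.79 and 6.51 CPM in ethanol against 1.99, 1.99 and 2.34 CPM in control and rose by 1.40 (adjusted p = 0.00209). Helb, a helicase that binds RPA, rose by 1.11 (adjusted p = 0.000976).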
